A study of Mus musculus with 8 samples.

Results

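The genes described here are 10 mouse genes that mark hepatic stellate cells and pericytes: Lrat, Hgf, Des, Rgs5, Colec11, Ecm1, Tcf21, Hand2, Pdgfrb and Acta2. They were taken by gene symbol from the platform annotation of an Illumina bead array. Of the 10 genes, 9 had a probe, with 13 probes in all among the 25697 on the array, which name 16593 genes, and Colec11, a soluble collectin made by stellate cells, had none by symbol or by gene ID. Ecm1 had 2 probes and Acta2 had 4. A probe was tested where its detection p-value was under 0.05 on at least 4 of the 8 arrays. That held for 10 member probes of 6 genes, out of 13498 probes tested, and it left Lrat, Hgf and Hand2 outside the test.

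The arrays measured total RNA from 4 livers and 4 hypothalami of male mice on a C57BL/6 background, killed at 13 weeks of age. Every animal carried the Fmod knockout, so that the controls for the gene deletion are not among these samples. Wild-type mice were not analysed here, and the only contrast is liver against hypothalamus within the knockout. The series text speaks of 4 mice, but the labels do not tie a replicate number to an animal, and the p-values below measure the spread between these arrays. Fmod encodes fibromodulin, a small leucine-rich proteoglycan of the extracellular matrix that binds collagen. Its probe ILMN_2999762 averaged 4.79 ± 0.26 in liver and 4.84 ± 0.28 in hypothalamus (normalized log2 intensity, SD, n = 4 each) and was detected on 0 liver arrays and 1 hypothalamus array. The other Fmod probe, ILMN_1230020, was detected on none of the 8. With no wild-type arrays these readings do not check the genotype.

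Hepatic stellate cells lie between the hepatocytes and the sinusoidal endothelium, where they store vitamin A as retinyl esters in lipid droplets. After liver injury they turn into contractile, collagen-producing myofibroblasts that carry alpha smooth muscle actin. Pericytes are the mural cells of capillaries, and in the brain they sit in the basement membrane of the blood-brain barrier. Both cell types depend on platelet-derived growth factor signalling, and markers such as Pdgfrb, Des and Rgs5 are found in mural cells of many organs.

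The promoters of the members with the largest tissue difference in each direction are shown first, as the RefSeq start sites of assembly GRCm38.p6 place them. Each line gives the 250 bases before the start, 5′ to 3′ on the gene's own strand, with E-boxes (CANNTG) and TATAAA in capitals. The Ecm1 window is chr3:95739570-95739819 and the Acta2 window is chr19:34255374-34255623, both on the minus strand.
Ecm1: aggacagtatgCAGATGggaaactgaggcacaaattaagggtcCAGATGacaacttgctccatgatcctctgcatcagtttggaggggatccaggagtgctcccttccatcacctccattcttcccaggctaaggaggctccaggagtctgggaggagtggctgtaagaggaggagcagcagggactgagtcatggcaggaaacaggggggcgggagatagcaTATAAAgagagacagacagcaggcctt
Acta2: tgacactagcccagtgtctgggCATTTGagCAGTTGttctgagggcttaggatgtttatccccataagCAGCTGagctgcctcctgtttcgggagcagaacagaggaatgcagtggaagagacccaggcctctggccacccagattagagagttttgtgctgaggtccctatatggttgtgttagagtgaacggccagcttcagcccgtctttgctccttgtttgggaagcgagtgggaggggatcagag
RefSeq windows running from 250 bases before to 50 bases after the start were available for 9 members, Pdgfrb not among them, and gave 10 windows. Both strands were searched. CANNTG, the core to which Tcf21 and Hand2 proteins bind as basic helix-loop-helix factors, was in 8 of the 10 windows and in 72.3% of all 32851 mouse windows. TATAAA was in 1 of 10, that of Ecm1, at bases -27 to -22 from the start, and in 13.6% of all windows. The strict CArG consensus (CCWWWWWWGG, where W is A or T, with no mismatch and no other length) had no match in the 10 member windows. It was in 1.63% of all windows. Serum response factor also binds CArG elements that depart from this consensus, and those were not searched for. A match is a description of the letters, and no match says only that these letters were not in the window.

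Among the tested members, the genes Tcf21, Ecm1 and Des were higher in liver, Acta2 was lower in liver on all 4 of its probes, and Rgs5 and Pdgfrb did not pass the test. Lrat, from the fit to all 25697 probes, of which 44.4% passed, was higher in liver as well. In counts, 8 of the 10 tested member probes passed limma's moderated test of liver minus hypothalamus at an adjusted p under 0.05, 4 in each direction. Of all 13498 tested probes 79.6% passed, 37.8% higher in liver and 41.8% higher in hypothalamus, so the members' share was near that of the array. Tcf21 met the detection filter through the livers alone, which set its direction in advance. The Ecm1 probe ILMN_1229746 and the Acta2 probe ILMN_2710353 were each detected on only 1 array of their dimmer tissue. The direction counts of the members thus partly follow from the filter. The tissues did not overlap for 8 of the 10 member probes, against 74.4% of all tested probes, and 6 of 10 differed by more than 2-fold in limma's treat test, 4 higher in liver and 2 higher in hypothalamus. Beyond 2-fold the array as a whole had 41.5%, with 19.4% higher in liver and 22.1% higher in hypothalamus. These 2-fold counts belong to the main normalization. Without background correction the log2 differences were 1.03 for Tcf21, 0.97 for the dimmer Ecm1 probe and 0.57 for Des. Those of the bright Ecm1 probe (4.09) and of the Acta2 probes ILMN_2693895 (-2.51) and ILMN_2923445 (-1.25) stayed larger. In tissue RNA, fewer cells of a type and less RNA per cell cannot be told apart.

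**Figure D1:**
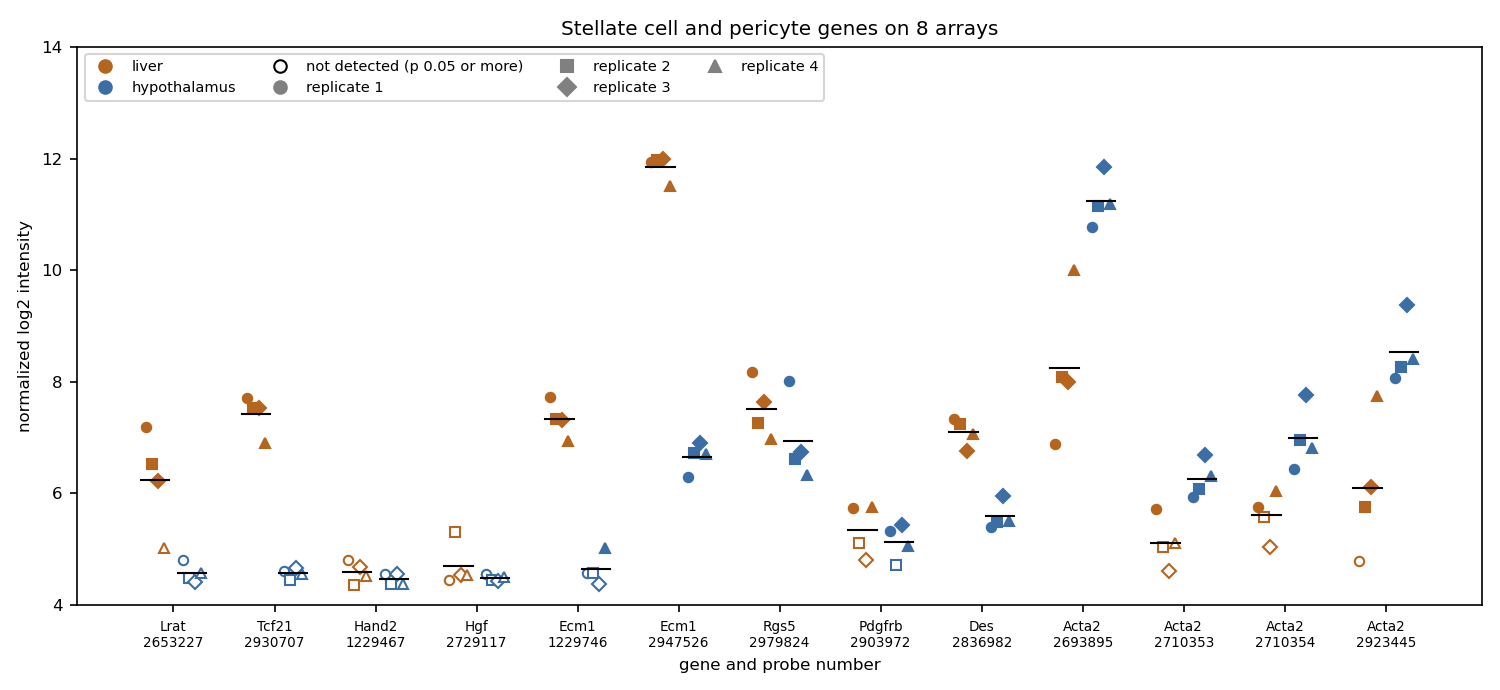
Normalized log2 intensity (y axis) of the 13 member probes (x axis) on each array, liver left of hypothalamus, with marker shape for the replicate, open markers for arrays without detection and black lines for tissue means. All liver points lie above the hypothalamus points for Tcf21, Ecm1 and Des, all below them for the 4 Acta2 probes, and the tissues overlap for Rgs5 and Pdgfrb.

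Levels in the following are normalized log2 intensities of a probe, in the order of replicates 1 to 4, and differences are liver minus hypothalamus on that log2 scale. A probe counts as detected on an array at a detection p-value under 0.05. Lrat encodes lecithin retinol acyltransferase, which esterifies retinol for storage and is the defining stellate cell marker. Its probe ILMN_2653227 read 7.19, 6.53, 6.21 and 5.01 in liver, against 4.80, 4.49, 4.42 and 4.57 in hypothalamus. It was detected on 3 liver arrays, all but replicate 4, and on no hypothalamus array, and the tissues did not overlap. The difference was 1.67 (SE 0.39, adjusted p = 0.00559 in limma's fit to all probes), or at least 2.53-fold higher in liver. Such a bound sets the brighter tissue's mean against the lowest signal that each array of the dimmer tissue detected, or against the probe's own reading where that was higher. It allows for the detection limit only, carries no sampling error and is not a confidence limit. It holds for the main normalization, and other scalings gave smaller differences for dim probes. A difference beyond 2-fold was not established for Lrat (adjusted p = 0.252, treat), and with the values that the authors normalized the difference was 0.31 (adjusted p = 0.0537).

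Tcf21 is a basic helix-loop-helix transcription factor of mesenchymal cells and, in liver, of quiescent stellate cells. Probe ILMN_2930707 read 7.71, 7.54, 7.53 and 6.91 in liver, against 4.61, 4.44, 4.65 and 4.56 in hypothalamus. Every liver array detected it and no hypothalamus array did. It was at least 5.74-fold higher in liver (difference 2.85, SE 0.17, adjusted p = 1.1e-07, limma), and liver replicate 4 was the lowest of the 4 livers. Hand2, another factor of that class and a stellate cell marker in mouse liver, read 4.80, 4.36, 4.68 and 4.52 in liver, against 4.55, 4.37, 4.55 and 4.38 in hypothalamus. No array detected probe ILMN_1229467, the tissues overlapped, and no fold is given.

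Ecm1 encodes extracellular matrix protein 1, a secreted glycoprotein of the matrix that is made by stellate cells and by hepatocytes. Probe ILMN_2947526 read 11.94, 11.98, 11.99 and 11.51 in liver, against 6.30, 6.73, 6.90 and 6.71 in hypothalamus. In the deposited intensities it lay between 2958 and 4123 on the liver arrays, against 250 to 286 on the hypothalamus arrays. It was detected on all 8 arrays, the tissues were far apart, and the fold was 36.7 (difference 5.20, SE 0.16, adjusted p = 7.78e-10, limma), the largest among the members. The second Ecm1 probe, ILMN_1229746, read 7.73, 7.33, 7.31 and 6.95 in liver, against 4.57, 4.58, 4.37 and 5.03 in hypothalamus, where 1 array detected it. Its difference was 2.69 (SE 0.19, adjusted p = 4.38e-07), at least 5.28-fold, so both probes gave the same direction and unequal sizes.

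Hgf encodes hepatocyte growth factor, which stellate cells secrete and which drives hepatocyte growth through the receptor Met. Probe ILMN_2729117 read 4.44, 5.31, 4.53 and 4.54 in liver, against 4.56, 4.46, 4.42 and 4.51 in hypothalamus. No array detected it, the tissues overlapped, and the difference of 0.22 (SE 0.18, adjusted p = 0.4 in limma's fit to all probes) was within the spread of the liver arrays. Median scaling of the arrays in place of quantile normalization put both undetected members past the threshold, Hgf at 0.49 (adjusted p = 0.00355) and Hand2 at 0.47 (adjusted p = 0.00361), while the values normalized by the authors turned their sign. The Hgf and Hand2 probes were thus below detection in both tissues, which says nothing on whether the tissues differ in these transcripts.

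Des encodes desmin, the intermediate filament of muscle and of rodent stellate cells and pericytes. It read 7.33, 7.24, 6.77 and 7.07 in liver, against 5.41, 5.49, 5.96 and 5.50 in hypothalamus, and all 8 arrays detected probe ILMN_2836982. The tissues did not overlap, and Des was 2.85-fold higher in liver (difference 1.51, SE 0.17, adjusted p = 1.28e-05, limma). The deposited intensities were close, 201.7 to 214.1 in liver against 182.3 to 192.8 in hypothalamus. The size of the difference moved with the scaling, to 0.79 with median scaling (adjusted p = 0.000443), 0.57 without background correction and 0.26 with the authors' normalized values (adjusted p = 0.0145).

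Rgs5, a regulator of G protein signalling that ends signals of Gq- and Gi-coupled receptors, is a common marker of brain pericytes. Probe ILMN_2979824 read 8.18, 7.27, 7.63 and 6.97 in liver, against 8.02, 6.62, 6.74 and 6.34 in hypothalamus. Hypothalamus replicate 1 stood within the liver range, with a deposited intensity of 529.1 against 236.5 to 267.4 on the other hypothalamus arrays, and the tissues overlapped. The difference of 0.58 (SE 0.37, adjusted p = 0.176, limma) did not pass, yet without hypothalamus replicate 1 it was 0.95 (adjusted p = 0.0106). Its sign turned to -0.22 with median scaling (adjusted p = 0.573) and to -0.18 with the authors' normalized values (adjusted p = 0.456).

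Pdgfrb, the receptor tyrosine kinase through which PDGF-B recruits pericytes to vessels and drives stellate cell growth, was near the detection limit. Probe ILMN_2903972 read 5.73, 5.10, 4.81 and 5.76 in liver, where 2 arrays detected it, against 5.33, 4.72, 5.43 and 5.06 in hypothalamus, where 3 did. The tissues overlapped and the difference was 0.22 (SE 0.24, adjusted p = 0.429, limma). With the authors' normalized values it was -0.20 and passed the threshold in the other direction (adjusted p = 0.0342), so no direction is given for Pdgfrb.

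Acta2 encodes alpha smooth muscle actin, the contractile actin of vascular smooth muscle, of some pericytes and of activated stellate cells. Its brightest probe, ILMN_2693895, read 6.88, 8.09, 8.002 and 10.0015 in liver, against 10.77, 11.15, 11.84 and 11.18 in hypothalamus. In deposited intensity the livers had 178.5, 293.4, 307.0 and 938.5, and the hypothalami lay between 2389 and 3398. All liver arrays were below all hypothalamus arrays, with liver replicate 4 the nearest. Acta2 was 7.95-fold lower in liver by this probe (difference -2.99, SE 0.55, adjusted p = 0.000613, limma).

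The other Acta2 probes went the same way with other sizes. ILMN_2923445 read 4.79, 5.75, 6.11 and 7.74 in liver, against 8.07, 8.26, 9.37 and 8.40 in hypothalamus, and was at least 4.73-fold lower in liver (difference -2.43, SE 0.55, adjusted p = 0.00227, limma; 3 liver arrays detected it). ILMN_2710354 read 5.76, 5.58, 5.04 and 6.05 in liver, against 6.43, 6.96, 7.76 and 6.81 in hypothalamus (difference -1.38, SE 0.29, adjusted p = 0.00149, at least 2.36-fold; 2 liver arrays detected it). ILMN_2710353 read 5.72, 5.03, 4.61 and 5.11 in liver, against 5.94, 6.08, 6.70 and 6.31 in hypothalamus (difference -1.14, SE 0.24, adjusted p = 0.00144, at least 1.55-fold; 1 liver array detected it). For these last 2 probes a difference beyond 2-fold was not established (adjusted p = 0.238 and 0.563, treat). The 4 probes measure 1 gene and are not independent of each other.

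**Figure D2:**
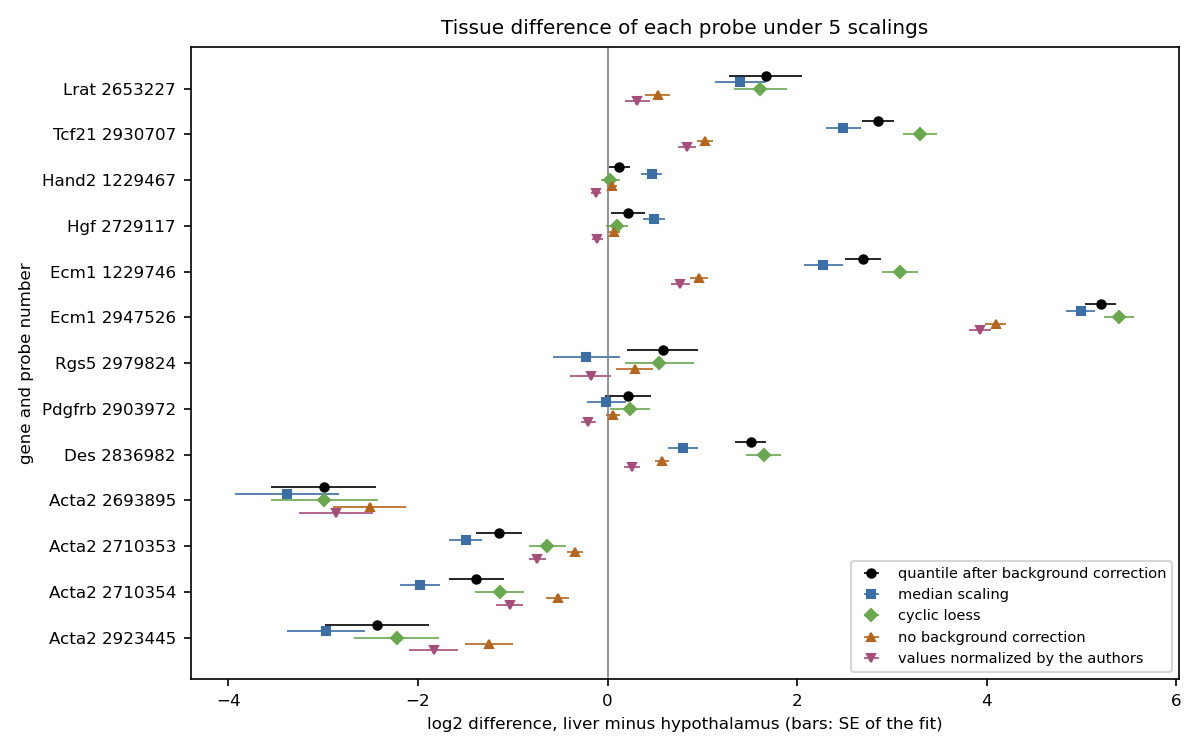
Log2 difference, liver minus hypothalamus (x axis, bars are the SE of the fit), of each member probe (y axis) under 5 ways of scaling the arrays. Acta2 stays below 0 and Lrat, Tcf21, Ecm1 and Des stay above 0 under all 5, whereas Rgs5, Pdgfrb, Hgf and Hand2 have values on both sides of 0.

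The size of a difference depended on the scaling, and the folds given as "at least" belong to the main normalization alone. With no background correction Tcf21 differed by 1.03, the dimmer Ecm1 probe by 0.97 and Lrat by 0.53, and with the authors' normalized values they differed by 0.84, 0.77 and 0.31. In the same order of settings, the bright Ecm1 probe differed by 4.09 and 3.93, the brightest Acta2 probe by -2.51 and -2.86, ILMN_2923445 by -1.25 and -1.83, ILMN_2710354 by -0.53 and -1.03 and ILMN_2710353 by -0.34 and -0.74. Over all tested probes the median difference was -0.07 in the main normalization, -0.49 with median scaling and -0.39 with the authors' values. Of the probes called, 47.5% were higher in liver in the main normalization, 34.4% with median scaling and 28.6% with the authors' values.

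The members also varied among the arrays of 1 tissue. The brightest Acta2 probe had an SD of 1.29 over the 4 livers, at the 99.9th percentile of the 9055 probes detected on all 4, whose median SD was 0.19. Rgs5 had an SD of 0.52 over the livers, at the 96.7th percentile, and of 0.75 over the hypothalami, at the 99.3rd percentile of 11941 probes with a median SD of 0.17. The hypothalamus SDs of the 4 Acta2 probes were at the 89.4th to 98.3rd percentile. Des, at the 65.9th percentile in liver and the 77th in hypothalamus, and the bright Ecm1 probe, at the 61.4th and the 78.1st, varied less than those. Without background correction the ranks moved, to the 44.9th and 34.7th for Des and the 85.9th and 59.1st for that Ecm1 probe. The Acta2 probe ILMN_2710353 fell from the 89.4th to the 68.8th in hypothalamus, and the brightest Acta2 probe stayed at the 99.9th in liver.

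Liver replicates 1 and 4 took opposite ends for most members. Among the 8 member probes detected on at least 3 livers, replicate 1 was the highest for 5 (Lrat, Des, Rgs5, the dimmer Ecm1 probe and Tcf21) and replicate 4 the lowest for 5 (Lrat, Rgs5, both Ecm1 probes and Tcf21). Both Acta2 probes in that set ran the other way, with replicate 4 highest and replicate 1 lowest. Of the Acta2 probes detected on fewer livers, ILMN_2710354 was highest on replicate 4 and ILMN_2710353 on replicate 1. Over all 9915 probes detected on at least 3 livers, replicate 1 was highest for 28.3% and replicate 4 lowest for 28.9%. Of 11 other stellate cell genes detected, replicate 1 was highest for 8 and lowest for 1. Replicate 4 was lowest for 7 of them and highest for 0. Of 5 smooth muscle genes detected, replicate 4 was highest for 3 (Mylk, Smtn and Cald1), against 30.9% of all probes. Smtn was a near tie, at 7.313 on replicate 4 and 7.306 on replicate 1. Vim had replicate 1 highest and replicate 4 lowest. These arrays were compared after their values were seen, and no test was made.

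In hypothalamus, replicate 3 was the highest for 7 of the 8 member probes detected on at least 3 arrays, against 24.9% of all 12772 probes. Rgs5 was the exception, and the 7 include the 4 Acta2 probes, which measure 1 gene. Of other stellate cell genes detected in that way, replicate 3 was highest for 3 of 10, and of smooth muscle genes for 4 of 7. Replicate 3 also stood apart in markers of tissue next to the hypothalamus. The choroid plexus list had all 7 genes detected, and its summed linear level was 23510 on replicate 3, against 1500 to 1999 on the other hypothalamus arrays. Ttr, the transthyretin of choroid plexus and of hepatocytes, made up most of that, at 5.42, 7.88, 14.32 and 7.79 in hypothalamus replicates 1 to 4. The list of meningeal and perivascular fibroblasts summed to 14840 on replicate 3, against 3799 to 9060 on the others, a linear sum that follows its brightest genes. Igf2 was at 13.25 on replicate 3, against 11.04 to 12.30, and Ptgds at 11.82, against 9.79 to 11.36. Dcn of the same list was not raised there, at 9.49 against 9.17 to 9.79. The part of these markers in the Acta2 level of replicate 3 was not tested. Without that array the brightest Acta2 probe still differed by -2.82 (adjusted p = 0.00256, limma), and without both hypothalamus replicate 3 and liver replicate 4, a choice made after the values were seen, by -3.35 (adjusted p = 4.1e-05).

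**Figure D3:**
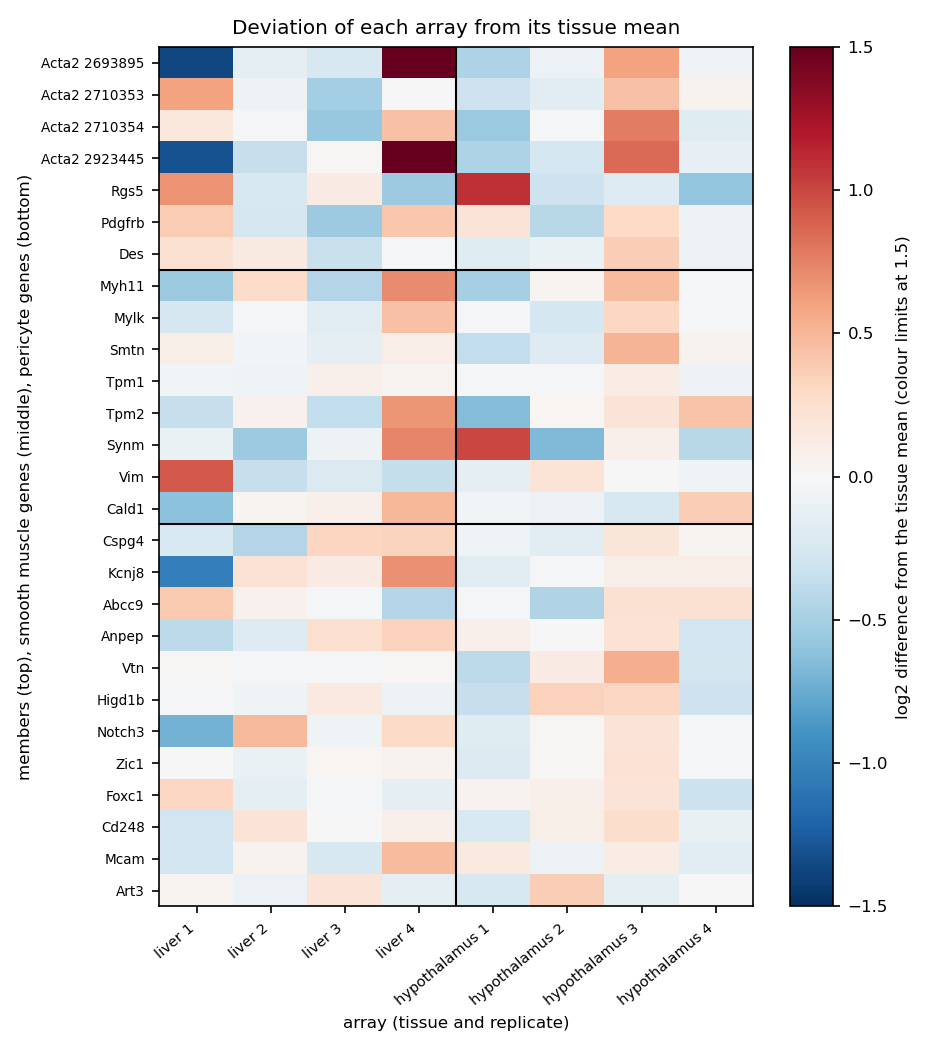
Deviation of each array (x axis) from the mean of its own tissue, in log2 units by colour. Rows (y axis, separated by lines) are the members Acta2, Rgs5, Pdgfrb and Des, then tested smooth muscle genes and tested pericyte genes. The tested members Tcf21 and Ecm1 are not drawn. The bright Acta2 probe is low in liver 1 and high in liver 4, all 4 Acta2 probes are high in hypothalamus 3, and Rgs5 is high in hypothalamus 1.

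Among 22 other stellate cell genes, 11 were tested, of which 8 were higher in liver, 2 were lower and 1 did not pass. The median difference was 0.99, against -0.07 for all tested probes. It was 0.52 without background correction, 0.44 with no filter and 0.15 with the authors' values, where 5 genes were higher in liver, and beyond 2-fold 3 were. Cxcl12, a chemokine of the liver mesenchyme, averaged 13.11 ± 0.18 in liver and 9.49 ± 0.20 in hypothalamus (SD, n = 4 each) and was 12.3-fold higher. Dcn, the proteoglycan decorin, was 5.74-fold higher in liver (difference 2.52, adjusted p = 1.06e-06, limma). Cygb, the globin by which stellate cells are often recognised in liver, was 6.72-fold lower in liver (difference -2.75, adjusted p = 1.13e-06), where it was still detected on 4 of 4 arrays. No array detected Vipr1, Bmp10, Gata4, Foxf1 or Hhip.

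Retinoid storage and transport genes, the partners of Lrat, had 11 of 21 tested, of which 7 were higher in liver, 1 was lower and 3 did not pass, with a median difference of 1.97. With median scaling 3 were lower in liver and with the authors' values 4 were, and the median was 0.47 with no filter. Rbp4, which carries retinol in plasma and is made by hepatocytes, was at least 81.1-fold higher in liver (difference 6.68, adjusted p = 2.61e-11, limma). Plin2, a coat protein of lipid droplets, was 51.0-fold higher (difference 5.67, adjusted p = 2.87e-10). Crabp1, a cellular retinoic acid binding protein, was at least 1.29-fold lower in liver, where no array detected it. Hepatocytes take part in these steps too, and the list does not belong to stellate cells alone.

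For the HGF pathway 3 of 10 genes were tested. Hgfac and Hpn, proteases that activate the HGF precursor, were at least 235-fold and at least 54.9-fold higher in liver, and Gab1, an adaptor downstream of Met, was 1.68-fold lower (difference -0.75, adjusted p = 0.000187, limma). No array detected the receptor gene Met, which does not show that its transcript was absent. Among the partners of Pdgfrb, 4 of 5 genes were tested, and 3 were lower in liver with none higher. Pdgfb, whose product is the main Pdgfrb ligand, was at least 4.11-fold lower in liver (difference -2.51, adjusted p = 1.56e-07), and Pdgfa, a ligand of Pdgfra, was 5.4-fold lower (difference -2.43, adjusted p = 3.27e-09).

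The collectins and their lectin pathway, the family of the unmeasured Colec11, had 5 of 7 genes tested, and all 5 were higher in liver. The median difference was 7.11 (4.62 with the authors' values and 4.56 without background correction). Each of the 5 was detected on all 4 livers, and in hypothalamus only Masp2 was, on 1 array. They thus passed the detection filter through the livers, which set the direction of the count in advance. Mbl1, a mannose-binding lectin, was at least 181-fold higher (difference 7.91, adjusted p = 2.93e-12, limma) and Masp2, its serine protease, at least 213-fold (difference 7.88, adjusted p = 3.06e-12). Colec10, the partner with which Colec11 forms a heteromer, was detected on 3 livers and 0 hypothalami and was outside the test.

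**Figure D4:**
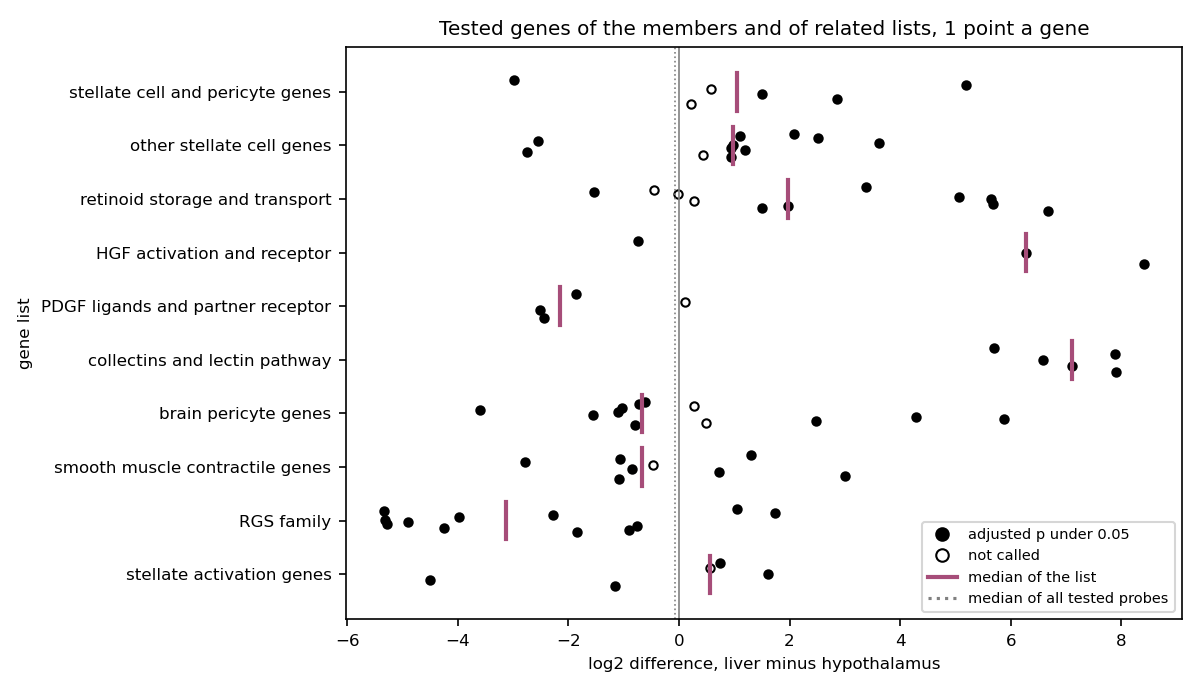
Log2 difference, liver minus hypothalamus (x axis), of the tested genes of the member list and of 9 related lists (y axis), 1 point a gene, filled where the adjusted p was under 0.05, with list medians as bars and a dotted line for the median over all tested probes. Collectin genes lie far above 0, RGS genes mostly below 0, and pericyte and smooth muscle genes on both sides.

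Of 17 brain pericyte genes, 12 were tested, and 7 were lower in liver, 3 were higher and 2 did not pass, with a median difference of -0.67. The median was -0.20 without background correction and -0.06 with no filter, 2 genes were lower in liver beyond 2-fold, and without liver replicate 1 the genes higher in liver numbered 5. Zic1, a zinc finger factor expressed in brain mural cells and in neurons, was at least 5.61-fold lower in liver (difference -3.61, adjusted p = 8.49e-10, limma). Higd1b, a pericyte marker of mouse brain, was at least 1.28-fold lower (difference -1.55, adjusted p = 2.02e-05). Anpep, an aminopeptidase of pericytes that hepatocytes carry too, was at least 53.8-fold higher in liver (difference 5.88, adjusted p = 8.21e-10).

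The smooth muscle contractile genes, the usual company of Acta2, split: of 8 tested of 15, 4 were lower in liver, 3 were higher and 1 did not pass, with a median of -0.66. Beyond 2-fold 1 was lower and 1 higher, with the authors' values 1 was higher, and the median was -0.23 without background correction and 0.015 with no filter. Synm, the intermediate filament protein synemin, was at least 4.68-fold lower in liver (difference -2.78, adjusted p = 5.96e-05, limma). Myh11, smooth muscle myosin heavy chain, was at least 1.39-fold lower (difference -1.08, adjusted p = 0.00768), with overlapping tissues. Mylk, myosin light chain kinase, went the other way at 8.01-fold higher in liver (difference 3.002, adjusted p = 1.1e-07). Cnn1, Lmod1 and Pln were detected on no array.

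The RGS family of Rgs5 had 12 of 17 genes tested, of which 10 were lower in liver and 2 were higher, with a median of -3.13 (-1.79 without background correction and -1.37 with no filter). Rgs17 and Rgs9, both prominent in neurons, were at least 22.4-fold and at least 24.4-fold lower in liver, and Rgs16 was 3.32-fold higher (difference 1.73, adjusted p = 0.000275, limma). Of 13 genes linked to stellate cell activation, 5 were tested, and 2 were higher in liver, 2 were lower and 1 did not pass. Their median difference of 0.57 turned to -0.07 with median scaling and was 0.24 without hypothalamus replicate 1. Tgfb1, the main fibrogenic cytokine, was 3.06-fold higher in liver (difference 1.61, adjusted p = 1.14e-05) and Mmp2, a gelatinase, 1.68-fold higher (difference 0.74, adjusted p = 0.00351). Timp2, an inhibitor of such proteases, was 22.7-fold lower (difference -4.50, adjusted p = 8.56e-11). Col3a1, Postn and Loxl2 were detected on no array.

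Markers of the main cell types of each tissue were higher in that tissue, but several lists split. Hepatocyte, sinusoidal endothelial and Kupffer cell lists had 7 of 7, 6 of 6 and 4 of 4 tested genes higher in liver, led by Hpx, Clec4g and Vsig4. All 4 tested neuronal genes were lower in liver, led by Eno2. Genes detected in only 1 tissue entered the test through that tissue, so the direction of such counts partly follows from the filter. Among markers outside the test, Fgb was detected on 1 liver array, and Kdr, Cd5l and Snap25 on no array. A probe without detection does not show that its transcript was absent. The summed level of the hepatocyte list was 145700 to 151500 on the livers, against 289 to 20720 on the hypothalami, the highest being the Ttr reading of replicate 3. Of 8 brain endothelial genes tested, 5 were lower and 2 higher in liver, and of 6 astrocyte genes, 5 were lower and 1 higher. Of 5 meningeal and perivascular fibroblast genes tested, 3 were higher in liver and 2 lower. The cholangiocyte list, a liver list, had 0 genes higher in liver and 1 lower of 2 tested. The portal fibroblast and mesothelium list had 1 gene higher and 4 lower of 6 tested, with Upk3b, a mesothelial gene, at 5.66 to 7.84 in liver and undetected in hypothalamus. The part of these cell types in the member differences was not tested.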

How the data were processed

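Total RNA from 4 livers and 4 hypothalami was hybridised to single-colour Illumina bead arrays, 1 array a sample, grouped and numbered by the labels. The deposited table gives a linear, unnormalized probe intensity and a detection p-value per array, the latter in steps of 1 in 798. In a further deposited table, used as an alternative, the authors had normalized the intensity values. Their method was not given in the sources used here. The submitters' processing notes name lumi 2.10.0 and R 2.15.0.

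In R 4.3.3 with limma 3.58.1, neqc corrected the background (normexp, offset 16), quantile-normalized the 8 arrays together and took log2. The tissue difference of the tested probes came from lmFit and eBayes (two-sided, no covariate), with p-values adjusted by Benjamini-Hochberg over 13498 probes. Quantile normalization gives both tissues 1 distribution, so differences are relative to the bulk of probes, and the background step widens differences of dim probes. The fit was tested on simulated data. Arrays detected 10307 to 10828 probes in liver and 13285 to 13753 in hypothalamus, their correlations were at least 0.976 within a tissue and at most 0.455 between tissues, and the number of arrays limits the precision.

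Gene names came from the platform annotation, which gave 1 symbol to 23978 probes and none to 1719. In the 20 lists, the brightest probe stood for a gene, and 191 of 207 entries had a probe. Members and list genes detected in only 1 tissue entered the test through it, which partly fixes the direction in the counts. Named genes were every member and Fmod probe, up to 2 called genes of each role list with the largest difference in the majority direction and 1 in the other, the brightest genes of marker lists, and the 3 genes most like each tested member. Ttr, Dcn, Mylk, Smtn, Cald1 and Vim in the comparison of arrays, Colec10, Mmp2, Fgb and the genes that no array detected were named after their values were seen. The members and lists were chosen with earlier results of these data known. Alternatives were other normalizations, no or another filter, array weights, an intensity trend, a replicate block and leaving out arrays. No comparison of protein sequences was made.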

Additional observations from a re-analysis of the deposited data

Results flagged for a closer look

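A single array lying far from the other 3 of its tissue was looked for in the 26 sets of 4 readings that the 13 member probes gave, and 3 were found. Chance flags about 1 in 20 such groups. The Ecm1 probe ILMN_2947526 read 11.51 on liver replicate 4, below 11.94 to 11.99 on the other livers. The Des reading of hypothalamus replicate 3 was 5.96, above 5.41 to 5.50 on the others. Hgf, which no array detected, read 5.31 on liver replicate 2, above 4.44 to 4.54 on the others. The Ecm1 and Des differences passed limma's test without these arrays too.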

How the results depend on the processing

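Each tested member probe was recomputed under 19 alternatives, except Pdgfrb, under 18, since it fell out under the stricter detection filter. Tcf21, both Ecm1 probes, Des and the Acta2 probes ILMN_2693895 and ILMN_2923445 kept their direction and passed under all of them. Beyond 2-fold, 2 member probes were higher in hypothalamus and 5605 of all tested probes passed. The sign turned with median scaling for Rgs5 (-0.22) and Pdgfrb (-0.011), and with the authors' values for Rgs5 (-0.18), Pdgfrb (-0.20), Hgf (-0.11) and Hand2 (-0.12); the cause was not tested. Leaving out 1 array at a time gave 8 to 9 member probes called, 4 to 5 higher in liver and 4 higher in hypothalamus, with 10378 to 10720 of all tested probes. The median of the activation list turned to -0.07 with median scaling, -0.06 with the authors' values and -0.025 with no filter, where that of the smooth muscle list was 0.015. Same-numbered livers and hypothalami deviated together weakly (correlations 0.03 to 0.12), and each liver matched its own number best. These correlations do not settle whether a number stands for 1 animal. The labels do not say so either, and the numbers were not taken as pairs in the main fit. With the replicate number as a block, 9 member probes and 10750 of all tested probes passed, Rgs5 being the addition (adjusted p = 0.00842, limma). Members below detection have no measured level, and 4 arrays a tissue limit the rest.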

Other observations

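The genes whose profile over the 8 arrays came nearest to each tested member, by root mean square distance after centring each probe, were compared over 9313 genes. For Ecm1 they were Smagp (0.15), Hhex (0.16) and Serpinc1 (0.18), for Tcf21 Frrs1 (0.16), Rida (0.16) and Lactb (0.17), and for Des Zbp1 (0.13), Cnksr3 (0.13) and Cldn15 (0.14). Rgs5 came nearest to Zfp101 (0.18), Eprs (0.22) and Kdm8 (0.24), and Pdgfrb to Polr3d (0.20), Ttc14 (0.21) and Wdr59 (0.21). Acta2 had no gene as near, with Aloxe3 at 0.53, Spats2l at 0.56 and B3galt5 at 0.59. Each distance is in log2 units, and genes with a tissue difference of like size come near to each other by it.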
